A study of Rattus norvegicus with 6 samples.

Results

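The genes examined encode basement membrane proteins of neonatal rat cardiac fibroblasts (NRCFs): the collagen IV chains Col4a1 and Col4a2, the multiplexin collagens Col15a1 and Col18a1, the laminin chains Lama2, Lama4, Lamb1 and Lamc1, the linker protein nidogen 1 (Nid1) and the proteoglycan perlecan (Hspg2). They were chosen by name, as 10 genes of this structure, with earlier results of these data known. Of the 21857 gene symbols with counts, 9 belonged to them. The expression of perlecan is not analysed here, and only the promoter window of its gene was read. NRCFs were cultured from newborn rat hearts, taken within 3 days of birth, and 6 RNA-seq libraries were compared. Of these, 3 came from cells transfected with the empty plasmid (Vector, labelled wild type) and 3 were labelled FTO overexpression, for cells given a plasmid carrying rat FTO, a demethylase that removes N6-methyladenosine (m6A) from RNA. No other treatment of these cells is named, and the plasmid was introduced into cultured cells rather than driven in a chosen cell type. The sample labels give the strain as Noway and the study's methods name Sprague-Dawley rats. The labels do not say whether the libraries of a group came from separate cultures, so that p-values measure the spread between these libraries, which may be technical.

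The libraries held 13178952 to 17857999 counted reads, and 12941 genes passed the filter on low counts, all 9 basement membrane genes among them. Values are CPM, counts of a gene brought to a common library total, with library sizes corrected by TMM, the scaling of edgeR. A log2 fold change is that of the libraries labelled FTO over Vector, with its standard error (SE), and a gene was called when its adjusted p-value in the quasi-likelihood test of edgeR was under 0.05. The paper reports checks of the FTO transfection by qRT-PCR and by protein level, and lower m6A in a dot blot, not in these libraries. Here Fto itself was at 87.8, 89.6 and 87.4 CPM in Vector and at 93.2, 90.8 and 92.9 CPM in the libraries labelled FTO. The groups did not overlap in CPM, as was so for 70.3% of all genes tested. The log2 fold change of Fto, 0.06 (SE 0.0468), had an adjusted p-value of 0.239 in edgeR, so a rise of Fto was not detected by this test. Every direction given here is therefore one between sets of libraries as labelled.

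A basement membrane is a thin sheet of matrix that underlies epithelia and endothelia and surrounds each heart muscle cell. Laminin trimers, each of an α, a β and a γ chain, bind receptors on the cell and polymerise into a first layer. Collagen IV trimers, in most tissues of α1 and α2 chains, form a second and covalently crosslinked network, and nidogen and perlecan join the layers. Fibroblasts supply part of these chains in the heart, and the α2 laminin chain is the form that muscle cells bind through dystroglycan.

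The genes of the α1 and α2 chains of collagen IV lie back to back, and their starts are shown first because the chains are made as partners and their mRNA levels fell alike in these data. In the RefSeq annotation of the rat build GRCr8, Col4a1 is read on the + strand and Col4a2 on the - strand of chromosome 16, with 76 bases between their starts. The window from 250 bases before to 50 bases after the start is given for each gene, 5′ to 3′ on the strand of the gene, at chr16:84885347-84885646 for Col4a1 and chr16:84885471-84885770 for Col4a2. Capitals mark the 176 bases that the windows share, read on opposite strands.
Col4a1: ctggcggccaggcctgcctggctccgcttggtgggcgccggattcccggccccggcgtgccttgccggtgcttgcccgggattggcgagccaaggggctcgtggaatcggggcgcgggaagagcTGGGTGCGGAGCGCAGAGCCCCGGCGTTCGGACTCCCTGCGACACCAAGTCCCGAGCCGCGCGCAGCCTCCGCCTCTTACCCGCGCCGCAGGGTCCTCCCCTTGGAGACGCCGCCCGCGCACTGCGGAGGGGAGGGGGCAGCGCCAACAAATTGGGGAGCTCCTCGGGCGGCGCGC
Col4a2: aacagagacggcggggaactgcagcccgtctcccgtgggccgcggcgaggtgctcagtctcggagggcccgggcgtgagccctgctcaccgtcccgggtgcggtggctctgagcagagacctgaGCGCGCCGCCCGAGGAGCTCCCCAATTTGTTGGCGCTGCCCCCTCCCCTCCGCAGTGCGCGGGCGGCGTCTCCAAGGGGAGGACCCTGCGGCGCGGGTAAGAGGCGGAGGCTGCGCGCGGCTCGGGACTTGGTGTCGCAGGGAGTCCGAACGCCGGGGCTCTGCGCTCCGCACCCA

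All 10 genes had such a window, and 5 short motifs were searched in them on both strands. The GC box GGGCGG was found in 8 of the 10 windows, against 33.1% of 33469 rat promoter windows of the same length. The windows of these genes were also richer in G and C, at 55% to 75%, than the median window at 51.67%. The CCAAT box CCAAT was in 4 of 10 windows, against 37.5% of all, and the TATA box TATAAA in that of Lama4 alone, against 14.2%. The AP-1 site TGACTCA and the E-box CACGTG were in none, against 4.63% and 6.42% of all. The stretch shared by Col4a1 and Col4a2 held 2 GC boxes and 1 CCAAT box, which did not overlap. These matches count in both windows, so the 10 windows are not 10 separate sequences. Such matches describe the letters of these windows only.

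The basement membrane genes were compared between the groups to see whether they moved as a block. They did not: 6 fell, 3 rose, and the division ran through the laminin chains and through the multiplexin pair. Col4a1, Col4a2, Nid1, Lama2, Lamc1 and Col15a1 were lower in the libraries labelled FTO, and Lama4, Lamb1 and Col18a1 were higher. All 9 were called by edgeR, in a table where 65.9% of the genes tested were called, 32.8% as lower and 33.2% as higher. In 8 of the 9 the libraries of the groups did not overlap in CPM, against 70.3% of all genes tested. At the threshold of the study, a change of at least 2-fold with an unadjusted p-value under 0.05, 3 of 9 passed (Col15a1, Col18a1 and Lama4), against 19.6% of all. The median log2 fold change of the 9 genes was -0.57, within a range of -1.23 to 1.53, where that of all genes tested was 0.00. So the share of genes called was high for the basement membrane genes and for the whole table alike. In bulk RNA, fewer cells of a type and less RNA per cell cannot be told apart.

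**Figure D1:**
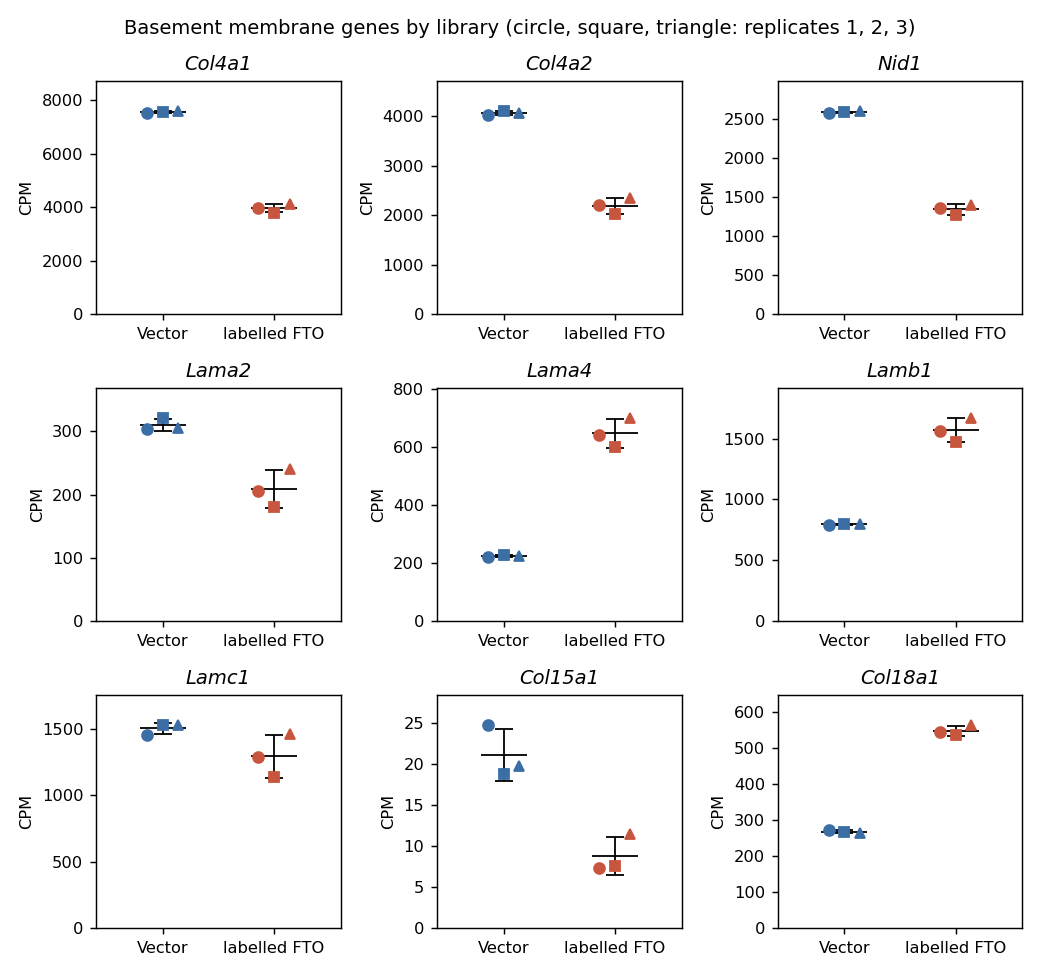
CPM of the 9 basement membrane genes (vertical axes from 0, a scale of its own for each gene) in the 3 Vector libraries (blue) and the 3 libraries labelled FTO (red), with the group mean and SD as black bars. The groups are apart in each panel except that of Lamc1, and the triangle, replicate 3, is the highest of the red points in all 9.

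Collagen IV, the network former, was read from many counts. Col4a1 was at 7518, 7563 and 7569 CPM in Vector replicates 1, 2 and 3 and at 3980.3, 3795 and 4100.03 CPM in replicates 1, 2 and 3 labelled FTO. The Vector libraries lay within a narrow band, and each library labelled FTO lay far under it. Col4a1 fell 1.91-fold, by 0.93 on the log2 scale (SE 0.0392, edgeR adjusted p = 1.1e-11). Col4a2 was at 4021, 4094 and 4064 CPM in Vector and at 2205, 2022 and 2342 CPM in the libraries labelled FTO, again with no overlap. Col4a2 fell 1.85-fold, by 0.89 on the log2 scale (SE 0.0481, edgeR adjusted p = 2.3e-10).

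The proportion of the collagen IV transcripts was also read within each library. The count of Col4a2 divided by that of Col4a1 was 0.535, 0.541 and 0.537 in Vector and 0.554, 0.533 and 0.571 in the libraries labelled FTO. These ranges overlapped, and the log2 ratio differed by 0.04 between the groups, with p = 0.4 in a two-sided exact permutation test (n = 3 per group). That test cannot go below 0.1 with these group sizes, and a p-value that misses the threshold does not show that the ratios were equal. Counts were not divided by transcript length, so a ratio is compared between libraries only and says nothing of which chain had more mRNA.

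Nidogen 1, which bridges laminin and collagen IV, fell by a similar amount. Nid1 was at 2575, 2583 and 2596 CPM in Vector and at 1363, 1268 and 1394 CPM in the libraries labelled FTO. The groups were clearly apart, with an SD of 10.5 CPM in Vector and 65.4 CPM in the other group. This was a change of -0.95 on the log2 scale (SE 0.0416, edgeR adjusted p = 1.9e-11). Nid2, its paralog, was singled out after its values were seen and moved the other way, from 81.0 ± 4.81 to 159.6 ± 2.03 CPM (SD, 3 libraries each) or by 0.98 on the log2 scale (SE 0.0505).

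The laminin α chains, which carry most of the receptor binding sites, moved in opposite directions. Lama2, the α chain of heart and skeletal muscle basement membranes, was at 303, 321 and 305 CPM in Vector and at 205, 180 and 241 CPM in the libraries labelled FTO. Every library labelled FTO was under every Vector library, though these 3 varied among themselves. Lama2 fell by 0.57 on the log2 scale (SE 0.0748, edgeR adjusted p = 8.1e-06). Lama4, the α chain found in vessel walls and in mesenchyme, was at 221, 230 and 225 CPM in Vector and at 642, 603 and 701 CPM in the libraries labelled FTO. This was the largest change among the 9 genes, 2.88-fold between the groups, and exceeded in size the change of 88.3% of the genes tested. On the log2 scale Lama4 rose by 1.53 (SE 0.0520, edgeR adjusted p = 8.0e-13).

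The β1 and γ1 chains are shared by most laminins of the heart, and only the β1 gene rose. Lamb1 was at 791, 795 and 799 CPM in Vector and at 1564, 1474 and 1666 CPM in the libraries labelled FTO. The groups did not overlap, and the level was 1.97-fold higher, just under the 2-fold threshold. On the log2 scale Lamb1 rose by 0.98 (SE 0.0451, edgeR adjusted p = 3.3e-11). Lamc1 was at 1455, 1529 and 1526 CPM in Vector and at 1285, 1137 and 1458 CPM in the libraries labelled FTO. Replicate 3 labelled FTO reached the level of Vector replicate 1, so the groups overlapped. The change of -0.22 on the log2 scale (SE 0.0660) was called all the same (edgeR adjusted p = 0.00960). It was -0.13 without FTO replicate 2 and -0.31 without FTO replicate 3, with adjusted p-values of 0.0123 and 4.0e-06, and it was not called when tested against a 1.2-fold change (adjusted p-value 0.717).

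**Figure D2:**
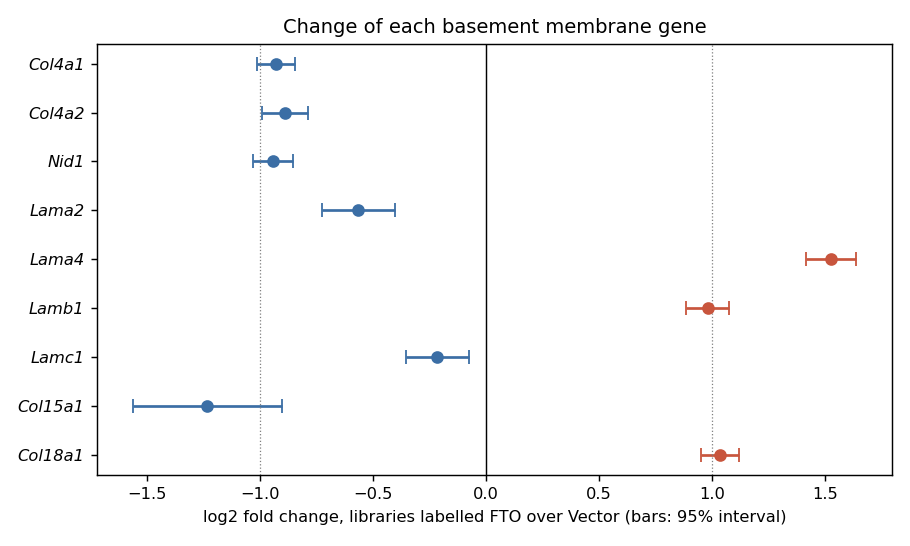
Log2 fold change (horizontal axis) of the libraries labelled FTO over Vector for each basement membrane gene, with the 95% interval of the edgeR fit and dotted lines at a 2-fold change. Lama4, Col18a1 and Lamb1 lie right of 0 and the other 6 left of it, with Lamc1 nearest to 0 at -0.22.

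Within a library, the balance of the laminin genes was therefore different between the groups. The count of Lama2 divided by that of Lama4 was 1.37, 1.40 and 1.36 in Vector and 0.319, 0.300 and 0.344 in the libraries labelled FTO. The log2 ratio was lower by 2.10 in the libraries labelled FTO (difference -2.10), and no values overlapped. For Lamc1 divided by Lamb1 the ratios were 1.84, 1.92 and 1.91 in Vector and 0.822, 0.772 and 0.875 in the libraries labelled FTO, a fall to 0.435 of the Vector ratio. Both comparisons gave p = 0.1 in the two-sided exact permutation test (n = 3 per group), the smallest value it can give here.

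Collagens XV and XVIII are related multiplexins at the outer face of basement membranes, and the C-terminal fragment of collagen XVIII is endostatin. Their genes moved apart. Col15a1 was at 24.8, 18.8 and 19.8 CPM in Vector and at 7.37, 7.63 and 11.4 CPM in the libraries labelled FTO. It was the gene with the fewest reads, 101 to 339 per library, and the most variable, yet all 3 libraries labelled FTO were under all 3 of Vector. Col15a1 fell by 1.23 on the log2 scale (SE 0.154, edgeR adjusted p = 4.2e-06). Col18a1 was at 271, 268 and 264 CPM in Vector and at 545, 536 and 563 CPM in the libraries labelled FTO. The level rose 2.05-fold with little spread in either group, or by 1.03 on the log2 scale (SE 0.0396, edgeR adjusted p = 3.4e-12). The count of Col15a1 over that of Col18a1 was 0.0917, 0.0703 and 0.0750 in Vector and 0.0136, 0.0143 and 0.0204 in the libraries labelled FTO, a log2 difference of -2.31, again with p = 0.1 in the exact permutation test.

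**Figure D3:**
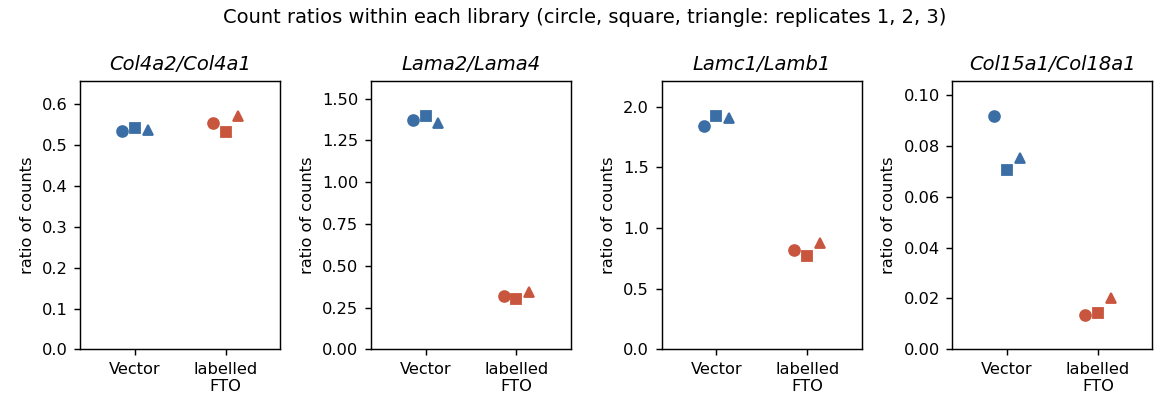
Count of the first gene divided by that of the second within each library (vertical axes from 0) for 4 pairs of basement membrane genes, in Vector (blue) and in the libraries labelled FTO (red). The Col4a2/Col4a1 ratio lies between 0.533 and 0.571 in all 6 libraries, and the other 3 ratios are lower in each library labelled FTO than in any Vector library.

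Summed, the 9 genes took 1.71% to 1.74% of all counted reads in Vector and 1.11% to 1.25% in the libraries labelled FTO. That fall rested on Col4a1, Col4a2 and Nid1, the genes with the highest CPM in Vector. Their means went from 7550 to 3958, from 4060 to 2190 and from 2584 to 1342 CPM. Lama4, Lamb1 and Col18a1 rose, and Lama2, Lamc1 and Col15a1 fell from lower levels, so the sum does not describe the set. Among the libraries labelled FTO, replicate 3 had the highest CPM in 9 of the 9 genes, whether the gene rose or fell, while it was the highest of the 3 for 35.3% of all genes tested. That library was also the deepest, and the part of depth was not tested. The coefficient of variation over the libraries labelled FTO was 2.57% to 25.9% for these genes, against 0.367% to 15.2% over the Vector libraries, where the median of all genes tested was 7.17% and 5.54%. Without FTO replicate 3 all 9 genes were still called, in the same directions.

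The rest of the basement membrane was examined with a list of 30 other components, of which 27 were tested. Of these 10 were higher, 13 were lower and 4 were not called, with a median log2 fold change of -0.29. Among the increases were those of Ntn1 (netrin 1, a laminin-related guidance protein; 3.58, SE 0.116) and Lamb3 (2.37, SE 0.140). Lamb3 encodes a chain of the epithelial laminin whose α3 chain gene, Lama3, chosen with its values known, was 4.01-fold lower, from 3.29 ± 0.384 to 0.797 ± 0.233 CPM. Among genes with a mean of at least 100 counts, the largest decreases were those of Fras1, from 22.5 ± 2.78 to 0.590 ± 0.126 CPM, Hmcn1 (hemicentin 1), from 48.8 ± 2.72 to 4.97 ± 0.909 CPM, and Smoc1, a calcium-binding matrix protein, from 54.5 ± 2.98 to 19.4 ± 0.712 CPM. On the log2 scale these were changes of -5.22, -3.28 and -1.49, and the adjusted p-values of Ntn1, Lamb3, Fras1, Hmcn1 and Smoc1 in edgeR were at most 6.8e-10.

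Further chains of the same families were chosen with their values already known. Lama5, the α chain of another widespread laminin, rose from 358 ± 2.60 to 611 ± 46.3 CPM, or by 0.77 on the log2 scale (95% interval 0.66 to 0.88). Lamb2, a β chain of muscle and synaptic laminins, fell from 287 ± 4.94 to 246 ± 14.6 CPM (-0.22, SE 0.0467). Col4a5 fell from 261 ± 9.16 to 96.7 ± 9.32 CPM (-1.43, SE 0.0604) and Col4a6 from 5.90 ± 0.831 to 2.28 ± 0.456 CPM (-1.36, SE 0.195). Col4a4 was at 67.4 ± 5.70 and 65.7 ± 5.65 CPM and was not called (adjusted p-value 0.691 in edgeR). Thus of the 6 collagen IV genes 5 were lower and called, Col4a3 among them at -0.50 (SE 0.191), although its libraries overlapped.

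Receptors through which cells hold a basement membrane were examined next. Of 16 tested, 4 were higher and 9 lower, with a median of -0.46, where 33.2% of all genes tested were higher and 32.8% lower. Itga6, an α subunit of laminin-binding integrins, fell from 77.7 ± 4.03 to 10.7 ± 2.05 CPM (-2.88, SE 0.0989). Dmd (dystrophin, which ties dystroglycan to actin) fell from 129 ± 3.19 to 28.7 ± 2.93 CPM (-2.17, SE 0.0657), and Itga1, a collagen IV-binding subunit, from 327 ± 20.4 to 122 ± 34.4 CPM (-1.42, SE 0.131). At a mean of at least 100 counts, the largest increases were those of the heparan sulfate proteoglycan Sdc4 (syndecan 4), from 144 ± 0.545 to 1308 ± 30.7 CPM, and of the laminin-binding subunits Itga3 (1.40, SE 0.0581) and Itga7 (0.83, SE 0.0786). Dag1 (dystroglycan), singled out after its values were seen, was at 1059 ± 2.75 and 841 ± 59.2 CPM, a change of -0.33 on the log2 scale (SE 0.0474). The integrin β1 subunit gene Itgb1, also chosen with its values known, had the highest CPM of these receptors in Vector. It fell from 4762 ± 6.65 to 1835 ± 67.2 CPM (-1.38, SE 0.0392).

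Dystroglycan binds laminin through a sugar chain, and 12 of 13 genes for its synthesis were tested. Here 3 were higher, 4 lower and 5 not called, with a median of -0.09, in a table where 65.9% of genes were called. Gmppb, which makes the activated mannose for the chain, was lower (-0.75, SE 0.0829), and Pomgnt2 (0.64, SE 0.125), Pomt1 (0.32, SE 0.0773) and Rxylt1, listed under its older symbol Tmem5 (0.19, SE 0.0676), were higher.

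Genes for folding, secreting and crosslinking collagen IV were lower in 9 of 12 cases and higher in 2, with a median of -0.58. The list is not confined to genes particular to collagen IV. Of all genes tested, 32.8% were called as lower and 33.2% as higher. Serpinh1, the collagen chaperone of the endoplasmic reticulum, fell from 2927 ± 30.9 to 1161 ± 16.6 CPM (-1.33, SE 0.0367). Pxdn (peroxidasin), which crosslinks collagen IV between trimers, fell from 439 ± 4.08 to 221 ± 30.2 CPM (-0.99, SE 0.0707). P3h2, a prolyl 3-hydroxylase that modifies collagen IV, fell from 17.7 ± 0.902 to 9.48 ± 0.796 CPM (-0.89, SE 0.103). Of the prolyl 4-hydroxylase subunits, P4hb, also a general disulfide isomerase, and P4ha2 rose, by 1.33 (SE 0.0371) and 0.76 (SE 0.0418). P4ha1, chosen with its values known, fell from 617 ± 18.2 to 336 ± 25.8 CPM (-0.88, SE 0.0518).

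Heparan sulfate, the sugar chain of perlecan, agrin and collagen XVIII, was covered by 19 genes, 18 of them tested. Of these 6 were higher, 5 lower and 7 not called, with a median of 0.07, in a table where 65.9% of genes were called. The polymerase gene Ext1, chosen with its values known, was not called (0.09, SE 0.0492, adjusted p-value 0.131 in edgeR), whereas an enzyme that cuts finished chains and one that edits them rose. Hpse (heparanase) rose from 2.72 ± 0.230 to 19.7 ± 2.36 CPM (2.86, SE 0.141), and the extracellular sulfatase Sulf1 from 195 ± 1.97 to 1122 ± 52.0 CPM (2.52, SE 0.0447). Hs6st1 and Hs6st2, which add the sulfate that Sulf1 removes, changed by 0.68 (SE 0.0456) and -1.33 (SE 0.0706). Glce (-0.46, SE 0.0581) and B4galt7 (-0.35, SE 0.0909) were also lower.

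Proteases that cut basement membrane proteins and their inhibitors were all called, 8 of 14 as higher and 6 as lower, with a median of 0.28, in a table where 65.9% of genes were called. Mmp3 (stromelysin 1) had no count in any Vector library and was at 20.2, 35.2 and 15.6 CPM in the libraries labelled FTO. Measured against a floor of 3 counts per library, this was at least 108-fold higher. Mmp3 was still the largest increase of the list at that bound, so the list median was the same by construction. Mmp9 (gelatinase B) rose from 0.934 ± 0.232 to 51.9 ± 14.2 CPM, and the inhibitor Timp1 from 106 ± 1.96 to 844 ± 23.8 CPM. Ctss (cathepsin S) fell by 2.09 on the log2 scale (SE 0.0637), Mmp12 (macrophage elastase) from 168 ± 4.15 to 61.4 ± 9.03 CPM, and Timp3, the inhibitor that binds matrix, from 103 ± 1.13 to 50.9 ± 3.56 CPM.

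**Figure D4:**
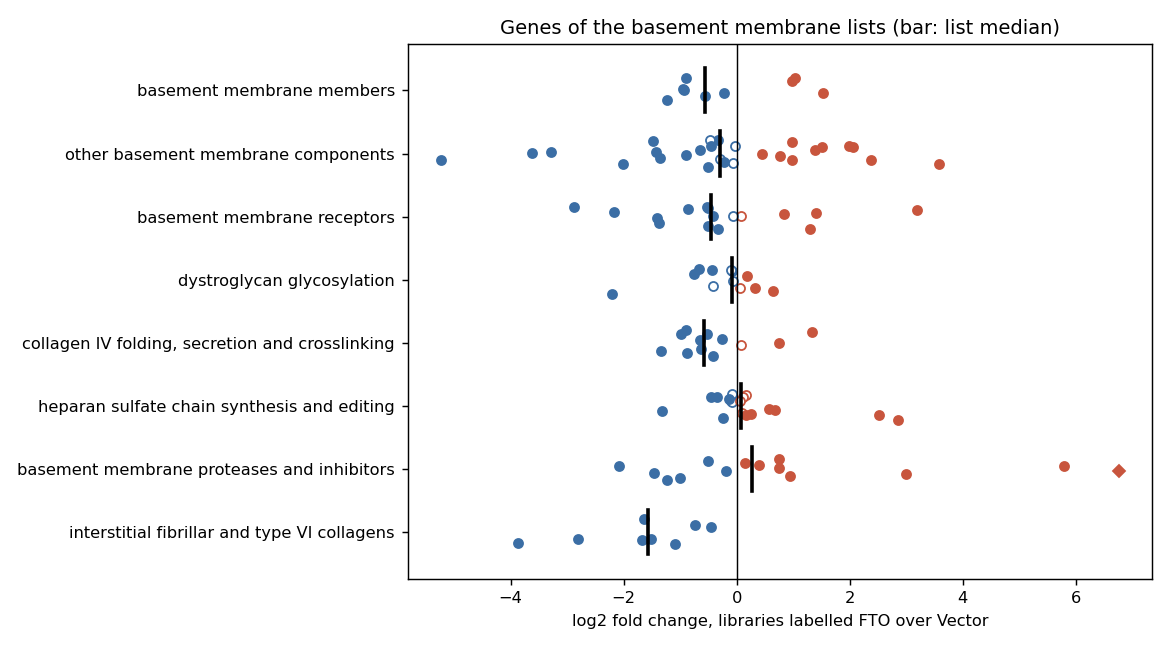
Log2 fold change (horizontal axis) of each tested gene in 8 lists, red for higher and blue for lower in the libraries labelled FTO, filled where the adjusted p-value was under 0.05, with list medians as black bars. The diamond is Mmp3 at its lower bound of 6.75, and the interstitial collagens are the one list with no gene right of 0.

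Interstitial collagens, the fibril and microfibril formers of the same cells, are set beside the basement membrane genes to show where these differ. All 8 fibrillar and type VI collagen genes tested were lower, with a median of -1.57 and a range of -3.86 to -0.46, against 6 lower and 3 higher of the 9 basement membrane genes. Over all genes tested 32.8% were called as lower, and both lists were chosen with earlier results of these data known. The largest decreases were those of Col6a3, from 1420 ± 37.3 to 97.0 ± 17.8 CPM, Col5a3, from 111 ± 6.17 to 15.9 ± 1.14 CPM, and Col3a1, from 10699 ± 90.0 to 3338 ± 363 CPM. The decrease of Col4a1 (-0.93) was thus smaller than those of Col1a1 (-1.64) and Col3a1 (-1.68), and larger than those of Col6a1 (-0.74) and Col6a2 (-0.46). Col1a1, Col6a1 and Col6a2 were chosen with their values known. The list does not cover every fibrillar collagen gene, and Col1a2 is among those left out. The difference between these lists was not tested.

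Basement membrane genes are also expressed by other cells of the heart, so markers of those cells were read. The 8 fibroblast markers were all detected, with 4 higher and 4 lower and a summed level of 5293 to 5437 CPM in Vector and 8995 to 9359 CPM in the libraries labelled FTO. That rise rested on Dcn (decorin), at 47.0 ± 1.57 and 5611 ± 221 CPM, and without it the other 7 summed to 5248 to 5388 CPM in Vector and to a lower 3497 to 3548 CPM in the libraries labelled FTO. Macrophage markers fell in 6 of 7 cases, from a sum of 1556 to 1608 CPM to one of 246 to 281 CPM. Mural markers were lower in 4 and higher in 2 of 6 tested, with sums of 1586 to 1638 and 880 to 966 CPM. Cardiomyocyte markers were higher in 9 of 10 cases, with sums of 1726 to 1758 and 2723 to 2819 CPM. Beside these counts, 33.2% of all genes tested were called as higher and 32.8% as lower.

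Endothelial markers, of cells rich in Lama4, Col4a1 and Col18a1, summed to only 33.7 to 36.4 CPM in Vector and 57.7 to 62.2 CPM in the libraries labelled FTO. Of 6 tested 4 were higher and 1 lower, in a table where 33.2% of genes were higher and 32.8% lower. Cldn5 had no count in any library, Emcn none in Vector, and Vwf was at 0.490 ± 0.251 and 0.632 ± 0.124 CPM. Epicardial and epithelial markers, 4 higher and 1 lower of 6, summed to 27.4 to 28.8 and 121 to 131 CPM. Without Msln (mesothelin), at 2.83 ± 0.678 and 87.1 ± 5.64 CPM, the other 5 summed to 23.9 to 26.1 and 38.3 to 41.1 CPM. Schwann cell markers, 2 lower of 3 tested, stayed at or under 9.66 CPM in sum. The part of these cells in the levels of the basement membrane genes was not tested.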

How the data were processed

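The deposited values are unnormalized read counts for each gene symbol. Libraries were made from total RNA with the NEBNext Ultra kit, per the labels. The submitters' processing notes name Trimmomatic and the rat build rn6, and the aligner, the counting program and the use of strand are not given in the sources used here. Counts of paralogs, overlapping genes and antisense genes are uncertain to that extent. No molecular identifiers are named, so floors and intervals cover counting error and replicate spread only.

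The genotype label set the group of a library, and its title the replicate number. Within each group, counts of library pairs differed by more than sampling noise (chi-square per degree of freedom 1.56 to 8.02). The libraries were treated as separate, but this spread does not show that they came from separate cultures. Genes were kept with filterByExpr (minimum count 10) and scaled by TMM (factors 0.995 to 1.005). The groups were compared with the two-sided quasi-likelihood test of edgeR 4.0.16 in R 4.3.3, without covariates, with Benjamini-Hochberg adjustment over all 12941 genes. The procedure was tested on simulated data. CPM are given with the SD of 3 libraries. Ratios of counts (0.5 added to each) were compared by an exact permutation test.

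The members and lists were chosen with earlier results of these data known. From each list the text names up to 3 called genes that rose most and 3 that fell most, among those with a mean of at least 100 counts, and any gene with no count. Genes outside this rule are marked as chosen afterwards or serve only as markers. The results were recomputed with DESeq2 1.42.0, limma-voom (3.58.1), other scalings and filters, glmTreat, the replicate block and leaving out each library. Promoter windows came from RefSeq (GRCr8) and matched all 10 genes by symbol, Hspg2 included, and Rxylt1 was matched by an older symbol. The expression of Hspg2 and Foxd3 is not analysed here, and some genes that this rule names are not reported here.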

Additional observations from a re-analysis of the deposited data

How the results depend on the processing

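Of 126 fold changes of the 9 basement membrane genes under 14 alternatives, 125 kept their direction and their call, and 1, that of Lamc1 under glmTreat, kept its direction (-0.22) and lost its call. Tested with glmTreat against a 1.2-fold change, 8 of the 9 genes were called, as were 5668 genes of the whole table in place of 8531 and 6 of the heparan sulfate genes in place of 11. That alternative asks for a larger change by construction. Without FTO replicate 2, Lamb1 (1.02) also passed the 2-fold threshold of the study, which made 4 genes in place of 3. Among the alternatives other than glmTreat the whole table gave 7795 to 9009 called genes. The replicate numbers did not pair the libraries (correlations of deviations 0.00628, -0.0869 and 0.0440 for equal numbers), and with the replicate block 9 of the 9 genes and 8399 of all genes were called. The median log2 fold change of all genes was 0.01 with library size alone. The ratios kept their sign with 5 in place of 0.5 added and without each library in turn, where that of Col4a2 to Col4a1 ran from 0.02 to 0.07 on the log2 scale. Col15a1, with 101 to 339 counts per library, was read from the fewest reads of the 9 genes.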
